A study of Mus musculus with 10 samples.

Results

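Transcripts of Wnt and beta-catenin signalling genes were measured by RNA-seq in prefrontal cortex, taken from male mice of the C57BL/6N strain on postnatal day 10. A list of 45 genes of the pathway was matched by gene symbol to the 18216 genes of the table. All 45 were found, and all 45 passed the filter (a mean normalised count of 10 or more) that left 16781 genes. By role they were 6 ligands, 13 receptors and co-receptors, 11 genes for beta-catenin, its destruction complex and Dishevelled, 7 inhibitors and 8 nuclear factors. The groups were 5 Arid1b+/- mice (HT) and 5 wild-type littermates (WT), with 1 library per mouse. The HT allele came from a CRISPR deletion around exon 5 with a TT insertion, in every cell of the body, and truncates ARID1B, a subunit of the BAF chromatin-remodelling complex. No mouse was treated, and no sequencing batch was given for any library.

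In canonical Wnt signalling, a secreted Wnt ligand binds a Frizzled receptor together with the co-receptor LRP5 or LRP6, and Dishevelled is recruited. Without ligand, a complex of APC, Axin, GSK3 and casein kinase 1 marks beta-catenin for degradation. With ligand, beta-catenin accumulates, enters the nucleus and activates genes with TCF/LEF factors, among them its own inhibitors. In the developing cortex the pathway takes part in progenitor division, areal patterning, synapse formation and the growth of brain vessels. Because ARID1B-containing BAF has been linked to beta-catenin, the comparison asks whether the transcripts of the pathway differ between genotypes.

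The libraries were first checked against their labels. Arid1b had a normalised count of 1894 ± 86.6 in HT and 2842 ± 142 in WT (SD, n = 5 each), and limma put the log2 fold change at -0.59 ± 0.05 (SE) with an adjusted p of 9.96e-05. Pairs of libraries correlated at 0.982 to 0.989 on the log2 scale. All 6 excitatory neuron markers were present in every mouse, with Slc17a7, the cortical vesicular glutamate transporter, at 37828 or more. Some mice differed in markers of neighbouring tissue. The 7 olfactory bulb markers summed to 3755 in HT2 and 3613 in WT4, against 711 to 2107 in the other 8 mice, and the 11 striatum markers summed to 6527 to 7535 in WT3, WT5 and HT5, against 14898 to 23041 in the other 7. HT2 also had the lowest summed neuron markers, 159036 against 186055 to 204331. Fold changes of Lrp5, Sfrp1, Sfrp2, Nkd1, Nkd2, Znrf3, Rnf43, Ctnnb1, Axin2, Gsk3a, Gsk3b, Fzd2, Fzd5, Fzd10, Lgr5, Tcf7, Wnt4 and Wnt5a are given with and without some of HT2, HT5 and WT4. The same was done for Csnk1a1, Axin1, Apc, Dvl1, Dvl2 and Dvl3.

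No Wnt pathway member differed between genotypes after adjustment. With limma, 0 of the 45 members had an adjusted p under 0.05, where 3 of all 16781 genes did (0.0179%), and the smallest adjusted p of a member was 0.511. Before adjustment, 2 members (4.44%) had a p under 0.05, the co-receptor gene Lrp5 and the secreted inhibitor gene Sfrp1, against 9.23% of all genes. Both were higher in HT, where 4.71% of all genes were higher at this level, and 0 members were lower, where 4.52% of all genes were. The pair of members was not the same under every alternative. Without HT2 and HT5, and likewise with the astrocyte score as a covariate, the members with an unadjusted p under 0.05 were Fzd10 and Nkd1, both lower in HT, in place of Lrp5 and Sfrp1. In those fits 6.02% and 4.67% of all genes had such a p. For 0 members did the HT and WT values fail to overlap, against 1.62% of all genes.

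The differences were small as well as uncertain. Of the members, 24 were higher and 21 lower in HT, with a median difference of 0.003 on the log2 scale and a range of -0.20 to 0.28. The median over all genes tested was -0.004. Without HT2 and HT5, the number higher in HT was 1 of 6 ligands, 4 of 13 receptors, 2 of 11 in the beta-catenin and destruction complex group, 3 of 7 inhibitors and 3 of 8 nuclear factors. The median size of the difference, whatever its sign, was 0.066 for the members and 0.082 for all genes. For 38 of 45 members the 95% interval of the difference lay within 0.5 of 0 on the log2 scale, and for 22 it lay within 0.25. In 7 members the difference exceeded the mean SD within genotypes, namely Lrp5, Fzd2, Fzd3, Fzd10, Gsk3a, Apc2 and Sfrp1. The same share over all genes was not computed, so this count does not set the members apart. Since a bulk tissue value was measured, fewer cells of a type and less RNA per cell cannot be told apart.

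**Figure D1:**
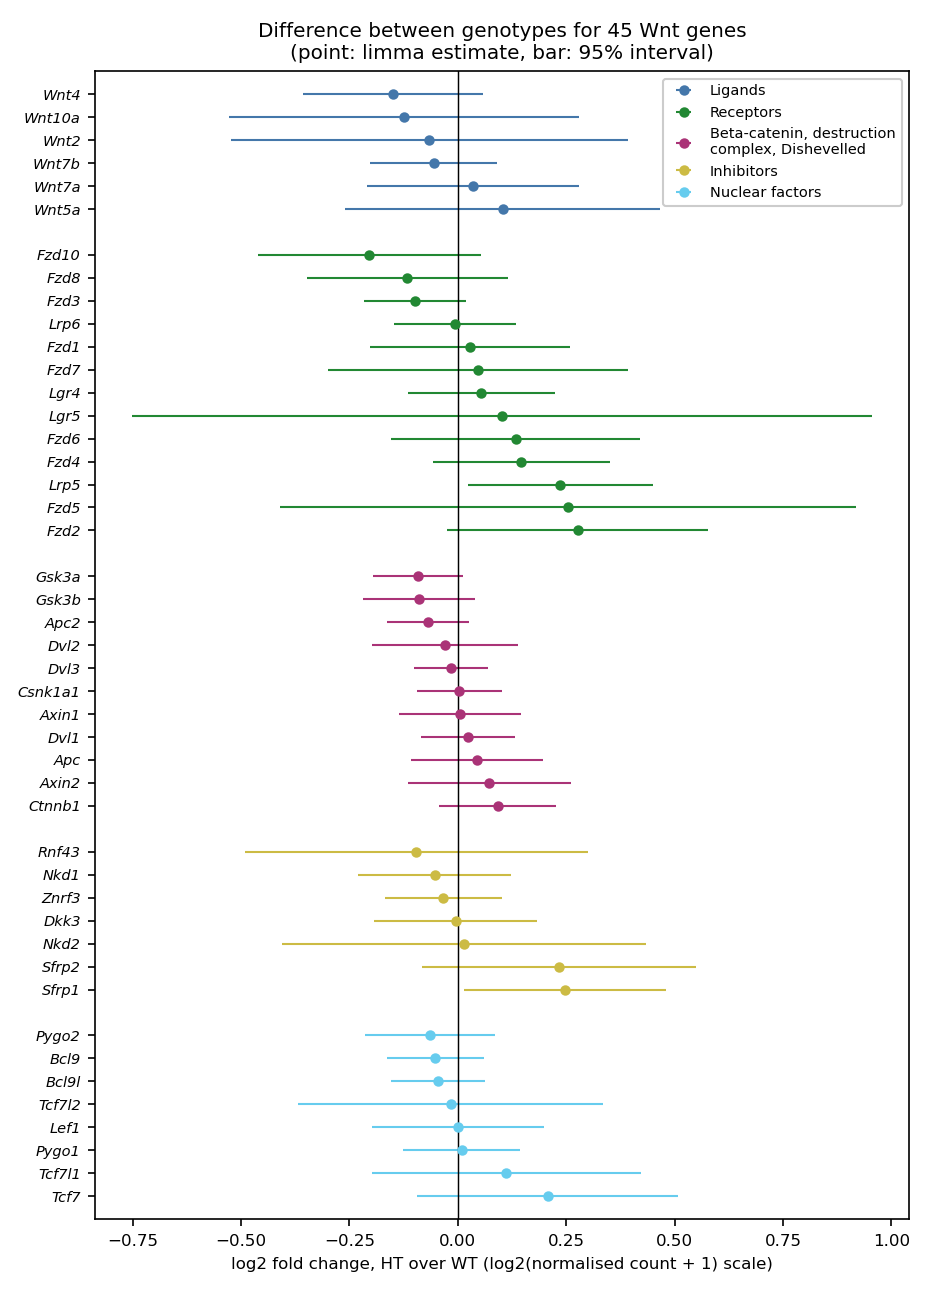
Log2 fold change of HT over WT (x axis, log2(normalised count + 1) scale) for each of the 45 Wnt genes (y axis), grouped by role, with points for the limma estimate and bars for its 95% interval from 5 mice per genotype. Only the bars of Lrp5 and Sfrp1 lie to the right of 0, and those of Lgr5 and Fzd5 are the widest.

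Levels were compared between genes per kilobase of exon, as the mean over all 10 mice. The exon length was the union of all annotated exons of a gene, not the length of the transcripts expressed. Beta-catenin itself, Ctnnb1, led the list at 3926 ± 309 normalised counts per kb, followed by Apc at 3578 ± 268, Gsk3a at 2205 ± 124, the secreted Dickkopf-family gene Dkk3 at 1457 ± 155 and Gsk3b at 1019 ± 70.9 (SD, n = 10). These 5 genes were the members at or above 1000. At the other end were the receptor gene Fzd5 at 7.08 ± 2.49 and the ligand gene Wnt10a at 13.4 ± 2.33. In the group of beta-catenin, the destruction complex and Dishevelled, 7 of 11 genes were above every ligand and receptor gene in level per kb. The others were Dvl3 at 463 ± 13.4, next to Fzd3, the highest receptor, and Axin2 at 183 ± 20.1, Axin1 at 172 ± 10.9 and Dvl2 at 85.9 ± 6.91.

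**Figure D2:**
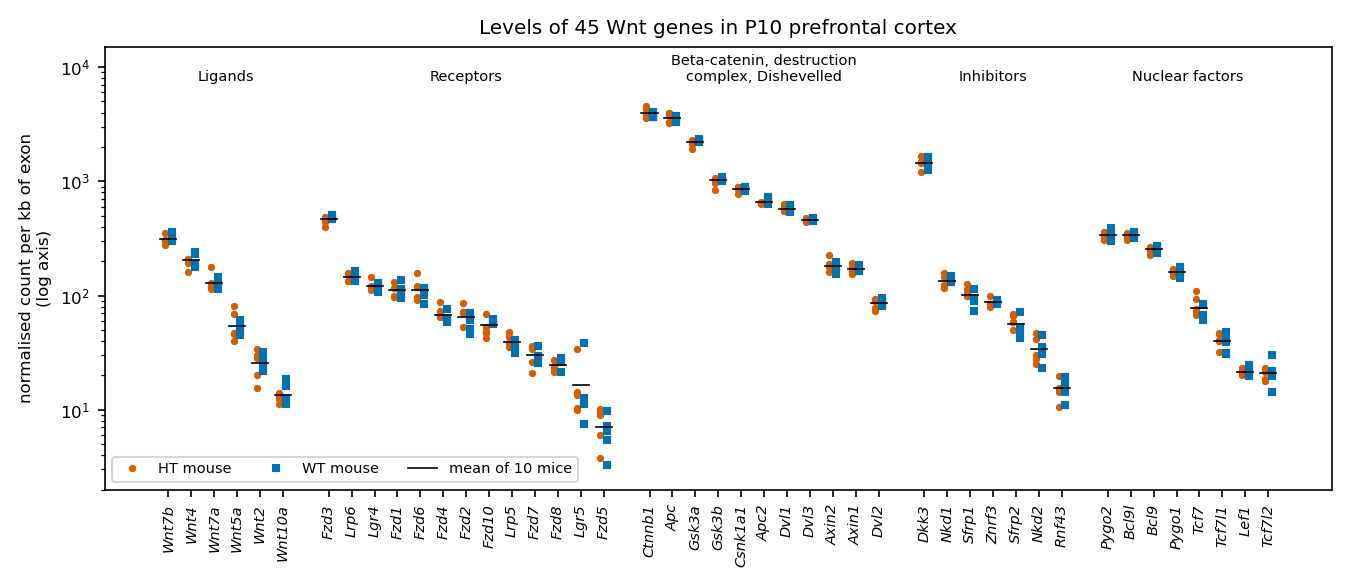
Normalised count per kilobase of exon (y axis, log scale) of each of the 45 genes (x axis), grouped by role and ordered by mean, with circles for the 5 HT mice, squares for the 5 WT mice and a line for the mean of all 10. HT and WT mice overlap for every gene, and the 2 high Lgr5 points are HT2 and WT4.

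Among the ligands, Wnt7b was the most abundant at 315 ± 25.7 per kb, ahead of Wnt4 at 205 ± 26.0, Wnt7a at 129 ± 19.3, Wnt5a at 54.0 ± 12.8, Wnt2 at 25.9 ± 5.81 and Wnt10a. WNT7A and WNT7B act on brain endothelium and on cortical progenitors, and WNT5A mainly signals without beta-catenin. Each ligand exceeded the next in all 10 mice except Wnt4 over Wnt7a, which held in 9 of 10. In HT, 2 of the 6 ligands were higher and 4 lower, their median log2 fold change was -0.06, and none had an unadjusted p under 0.05. Wnt4 had the largest difference, with normalised counts of 871, 676, 816, 828 and 870 in HT1 to HT5 and 992, 796, 1011, 748 and 975 in WT1 to WT5. All HT values lay below the WT mean, yet the WT2 and WT4 values lay inside the HT range, and limma gave a log2 fold change of -0.15 ± 0.10 (SE) with an adjusted p = 0.617. Without HT2, the lowest mouse, it was -0.085.

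Wnt5a and Wnt7b were high in mice of both genotypes. Wnt5a was 635 and 541 in HT2 and HT5, 475 in WT4, and 315 to 428 in the other 7 mice. Wnt7b was 1739, 1759 and 1616 in HT5, WT3 and WT5, the mice with low striatum markers, and 1355 to 1518 in the other 7. The log2 fold change of Wnt7b was -0.06, and -0.001 with the striatum score as a covariate. That of Wnt5a was 0.10, and turned to -0.20 without HT2 and HT5 (limma adjusted p = 0.854).

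The receptors were led by Fzd3, at 467 ± 31.01 per kb. Its product is known from axon guidance and planar polarity. Next came the co-receptor gene Lrp6 at 147 ± 10.7 and the R-spondin receptor gene Lgr4 at 120 ± 11.2. Fzd1 (112 ± 14.4) and Fzd6 (111 ± 20.1) did not differ beyond their spread, nor did Fzd4 (68.1 ± 8.58) and Fzd2 (64.4 ± 12.2), since the first exceeded the second in only 6 of 10 mice in either pair. Below them stood Fzd10 at 55.7, Lrp5 at 39.1, Fzd7 at 29.9, Fzd8 at 24.9, Lgr5 at 16.4 and Fzd5. Lrp6 was thus the more abundant of the LRP co-receptor genes and Lgr4 of the R-spondin receptor genes.

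In HT, 9 of 13 receptors were higher and 4 lower, and their median log2 fold change was 0.05, where 48.8% of all genes were higher. The number higher in HT was 6 of 13 without HT2 (median -0.01) and 4 of 13 without HT2 and HT5 (median -0.035). It was 8 of 13 without HT2 and WT4 (median 0.036), and also with quality weights (median 0.027). With the astrocyte and endothelial scores as covariates it was 3 and 4 of 13 (medians -0.05 and -0.03). The cause of these moves was not tested. Lrp5 had normalised counts of 345, 470, 374, 418 and 455 in HT1 to HT5 and 401, 344, 305, 361 and 334 in WT1 to WT5. The groups overlapped, since WT1 lay above 2 HT mice, and 4 of 5 HT mice lay above the WT mean. The means were 412 ± 52.7 in HT and 349 ± 35.6 in WT (SD, n = 5). The fold change from limma was 0.24 ± 0.10 (SE) on the log2 scale, with an unadjusted p under 0.05 and an adjusted p = 0.511. Lrp5 (ENSMUSG00000024913) lies on the minus strand at chr19:3584828-3686564 in GRCm38. Its partner Lrp6 gave 2002 ± 158 in HT and 2010 ± 154 in WT, a log2 fold change of -0.006 with a 95% interval of -0.15 to 0.13.

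Lrp5 moved with glial and neuronal markers across mice. Its values followed the astrocyte marker score, the mean z-score of 10 markers, with Pearson's r = 0.88 (permutation p = 0.00061, adjusted p = 0.0445 over 720 relations) and Spearman's rho = 0.76 (permutation p = 0.0152, adjusted p = 0.266) over the 10 mice. Without HT2 and HT5, the mice farthest from the median score, r was 0.67, and with each genotype's mean subtracted it was 0.81. With the neuron marker score r was -0.78 (permutation p = 0.00023, adjusted p = 0.0319) and rho was -0.90 (permutation p = 0.0008, adjusted p = 0.0972), and r was -0.79 without HT2 and WT3. All 10 astrocyte markers were higher in HT, 6 of them at an unadjusted p under 0.05, and their summed count ranged from 160362 to 204110 in HT and from 146254 to 172826 in WT. None of these markers was at 0 in any mouse. In the other non-neuronal lists the markers higher in HT were 8 of 8 for microglia, 8 of 8 for oligodendrocytes, 5 of 5 for their precursors, 6 of 6 for mural cells, 7 of 7 for dividing cells, 8 of 10 for endothelium, 6 of 10 for meningeal fibroblasts and 1 of 3 for choroid plexus, against 48.8% of all genes. The microglia score was 1.67 in HT2 and 1.28 in HT5, and -0.83 to -0.06 in the other HT mice. In the neuron, excitatory neuron and inhibitory neuron lists the markers higher in HT were 2 of 6, 2 of 6 and 6 of 7. For olfactory bulb, striatum and thalamus they were 7 of 7, 10 of 11 and 4 of 6. With the astrocyte score as a covariate the Lrp5 log2 fold change was 0.06 (limma adjusted p = 0.979), with the endothelial score it was 0.15 (limma adjusted p = 0.772), and without HT2 and HT5 it was 0.12 (limma adjusted p = 0.910). None of these fits kept the unadjusted p under 0.05. In the 10 fits that left out 1 mouse it stayed between 0.19 and 0.30, and the unadjusted p rose above 0.05 without HT2, HT4, HT5, WT2, WT3 or WT5.

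No other receptor had an unadjusted p under 0.05 on all 10 mice, and none passed adjustment. Fzd2, for a Frizzled that signals both with and without beta-catenin, had 259 ± 43.7 in HT and 213 ± 36.1 in WT, which limma put at 0.28 ± 0.14 (SE) on the log2 scale (adjusted p = 0.556). The difference was 0.16 without HT2 and HT5 and 0.10 with the astrocyte score as a covariate. Fzd4, the Frizzled of the retinal and brain vasculature, lay above the WT mean in all 5 HT mice, at 436 to 589 against 394 to 508 (log2 fold change 0.15, limma adjusted p = 0.619). Fzd5, the lowest receptor, gave 0.25, and -0.035 without HT2 and HT5. Fzd10 had 152, 224, 159, 138 and 173 in HT1 to HT5 and 195, 202, 194, 182 and 190 in WT1 to WT5. All HT mice but HT2 were below the lowest WT mouse, and the log2 fold change was -0.20 ± 0.12 (SE, limma adjusted p = 0.595). It was -0.31 without HT2 (limma adjusted p = 0.581) and -0.36 without HT2 and HT5 (limma adjusted p = 0.619). Its unadjusted p was under 0.05 in 7 of 26 alternatives, all of them fits without HT2, with quality weights or with the astrocyte or endothelial score.

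Lgr5, a stem cell receptor for R-spondins and itself a textbook beta-catenin target, varied most of all members, with a coefficient of variation of 65.2% over the 10 mice. It was 351 in HT2 and 393 in WT4 and between 77.6 and 148 in the other 8 mice. The high mice came from both genotypes and were those with the highest olfactory bulb marker sums. The means, 169 ± 104 in HT and 167 ± 128 in WT, leave a 95% interval of -0.75 to 0.96 for the log2 fold change, so a difference smaller than that was not detectable here. The direction turned with the mice and covariates used. The log2 fold change was 0.10 on all mice, 0.17 ± 0.19 (SE) without both high mice, -0.20 without HT2 alone, -0.29 without HT2 and HT5, and -0.33 ± 0.21 (SE) with the olfactory bulb score as a covariate, none with an unadjusted p under 0.05.

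**Figure D3:**
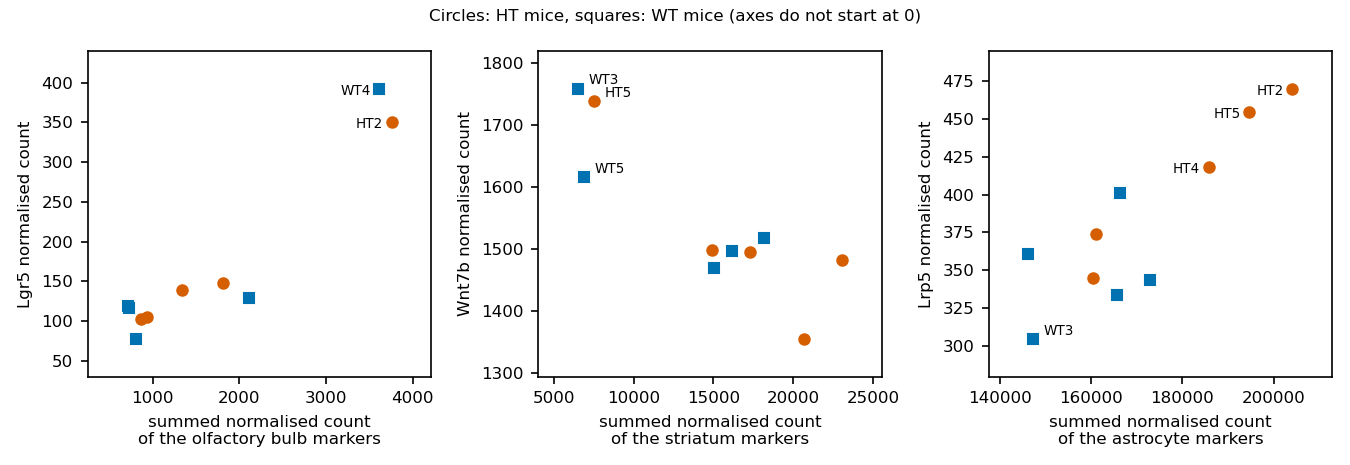
Normalised count of Lgr5, Wnt7b and Lrp5 (y axes) against the summed normalised count of the olfactory bulb, striatum and astrocyte markers (x axes), with circles for HT and squares for WT mice. HT2 and WT4 stand apart for Lgr5, HT5, WT3 and WT5 for Wnt7b, and the 3 HT mice with the highest astrocyte sums have the highest Lrp5 values.

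Ctnnb1 encodes beta-catenin, the central transducer of the pathway. The gene (ENSMUSG00000006932, plus strand of chr9:120929216-120960507, GRCm38) had normalised counts of 20460, 23733, 18669, 20212 and 22235 in HT1 to HT5 and 18901, 19253, 20972, 20357 and 19071 in WT1 to WT5. HT2 and HT5 were above every WT mouse and HT3 below every WT mouse. The means of 21062 ± 1957 and 19711 ± 906 differed by 0.09 ± 0.06 (SE) on the log2 scale, with a 95% interval of -0.04 to 0.23 and an adjusted p = 0.634 from limma. The difference was 0.048 without HT2, 0.005 without HT2 and HT5, and 0.009 with the astrocyte marker score as a covariate.

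Axin2 is a scaffold of the destruction complex and a feedback target of beta-catenin, and its transcript is often read as a measure of pathway activity. The gene (ENSMUSG00000000142) lies on the plus strand of chr11:108920349-108950783. It had 983, 1244, 883, 1038 and 1022 in HT1 to HT5 and 940, 1032, 848, 1089 and 994 in WT1 to WT5. HT2 alone exceeded the WT range. The means of 1034 ± 132 and 981 ± 91.9 differed by 0.07 ± 0.09 (SE) on the log2 scale (adjusted p = 0.792 from limma), and by -0.016 without HT2 and HT5.

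**Figure D4:**
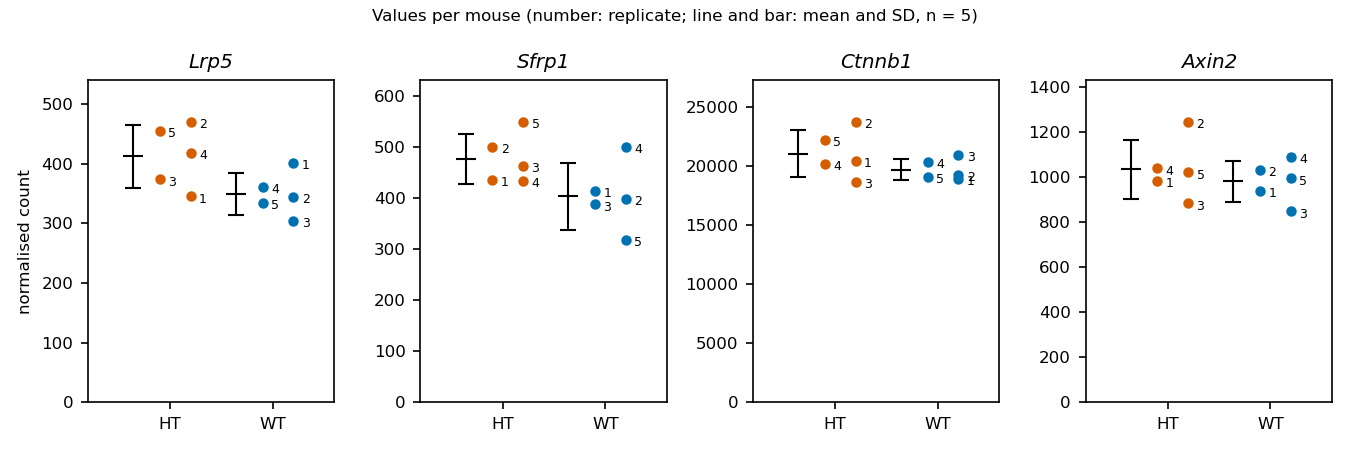
Normalised count (y axis, from 0) of Lrp5, Sfrp1, Ctnnb1 and Axin2 in each HT and WT mouse (x axis), with the replicate number beside each point and the mean and SD of 5 mice to its left. HT and WT points overlap in all 4 genes, and HT2 is the highest HT mouse for each gene but Sfrp1.

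For the rest of the complex the intervals were narrow. The kinase genes Gsk3a and Gsk3b, whose products phosphorylate beta-catenin, had log2 fold changes of -0.09 each, with 95% intervals of -0.20 to 0.01 and -0.22 to 0.04, and HT2 was the lowest mouse for both. Without HT2 the values were -0.055 for Gsk3a and -0.03 for Gsk3b, and with the astrocyte score Gsk3b turned to 0.014. Csnk1a1, for the priming casein kinase, gave 0.003 (-0.10 to 0.10), the scaffold gene Axin1 gave 0.005 (-0.14 to 0.15), and the scaffold gene Apc gave 0.04 (-0.11 to 0.20). Leaving out HT2 gave 0.036, 0.019 and 0.014 for Csnk1a1, Axin1 and Apc, and leaving out HT2 and HT5 gave 0.050, -0.031 and -0.006. With the astrocyte score they were 0.062, -0.010 and -0.073. Apc2, a relative of Apc expressed mainly in neurons, was 7166 to 7380 in HT and 7091 to 8193 in WT, with every HT mouse below the WT mean (log2 fold change -0.07, limma adjusted p = 0.612). The Dishevelled genes Dvl1, Dvl2 and Dvl3, which relay the signal from Frizzled, gave 0.02, -0.03 and -0.02, and -0.01, -0.07 and -0.02 without HT2. Dvl3 varied least of all 45 members, with a coefficient of variation of 2.90%.

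Of the 7 inhibitor genes, 3 were higher and 4 lower in HT, and the median log2 fold change was -0.005. Sfrp1 encodes a secreted Frizzled-related protein that binds Wnt ligands. It had normalised counts of 436, 501, 464, 434 and 550 in HT1 to HT5 and 415, 399, 389, 501 and 319 in WT1 to WT5. Each HT mouse exceeded the mean of the WT mice, while WT4 was as high as HT2, so the groups overlapped. The means were 477 ± 49.0 and 404 ± 65.4 (SD, n = 5). The fold change from limma was 0.25 ± 0.11 (SE) on the log2 scale, with an unadjusted p under 0.05 and an adjusted p = 0.517. Sfrp1 (ENSMUSG00000031548) lies on the plus strand of chr8:23411502-23449632.

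Sfrp1 values moved with the olfactory bulb marker score, with Pearson's r = 0.75 (permutation p = 0.012, adjusted p = 0.139) and Spearman's rho = 0.76 (permutation p = 0.0152, adjusted p = 0.266) over the 10 mice. The relation did not pass adjustment, and r was 0.69 without HT2 and WT4. With that score as a covariate, an alternative chosen after seeing the data, the log2 fold change was 0.16 (limma adjusted p = 0.714). Without HT2 and WT4, the mice with the highest olfactory bulb sums, it was 0.31 with an unadjusted p under 0.05 (limma adjusted p = 0.476), also an alternative added after seeing the data, and without HT2 and HT5 it was 0.15 (limma adjusted p = 0.9001). Leaving out WT5 gave 0.16 (limma adjusted p = 0.696) and leaving out WT4 gave 0.33 (limma adjusted p = 0.364). The unadjusted p rose above 0.05 without HT2, HT3, HT5, WT2, WT3 or WT5.

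Its relative Sfrp2 was 108 to 150 in HT and 91.2 to 153 in WT, which is 0.23 ± 0.15 (SE) on the log2 scale (limma adjusted p = 0.611). It was 0.12 without HT2 and HT5 and 0.31 without HT2 and WT4 (limma adjusted p = 0.534), and its unadjusted p was under 0.05 in 2 of 26 alternatives, without WT4 alone and without HT2 and WT4. The feedback inhibitor genes Nkd1 and Nkd2, whose products bind Dishevelled, and Znrf3 and Rnf43, for ligases that remove Frizzled from the membrane, ranged from -0.10 for Rnf43 to 0.01 for Nkd2. Without HT2 and HT5 these values were -0.25 for Rnf43, -0.11 for Nkd2, -0.09 for Znrf3 and -0.18 for Nkd1, the last with an unadjusted p under 0.05 (limma adjusted p = 0.812). Dkk3, by far the most abundant per kb of the genes listed here as inhibitors, gave 4886 ± 565 in HT and 4901 ± 541 in WT.

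Among the nuclear factors, the co-activator genes Pygo2 (340 ± 28.0 per kb) and Bcl9l (338 ± 17.6 per kb) led and did not differ beyond their spread, followed by Bcl9 at 254 and Pygo1 at 161. The DNA-binding factors of the family were lower, with Tcf7 at 78.1, Tcf7l1 at 39.6, Lef1 at 21.4 and Tcf7l2 at 21.1, the last pair again within their spread. In HT 4 were higher and 4 lower, and their median log2 fold change was -0.008. Lef1 gave 188 ± 12.1 in HT and 188 ± 17.4 in WT. Tcf7 had the largest difference at 0.21 ± 0.14 (SE, limma adjusted p = 0.63), with 161 to 221 in WT and 179 to 286 in HT. It was 0.11 without HT2, 0.02 without HT2 and HT5, and 0.008 with the astrocyte score as a covariate. Tcf7l2, for the main TCF of thalamus, reached 266 in WT2 against 125 to 203 in the other 9 mice.

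Promoter windows were read to show where TCF/LEF consensus words stand near starts of these genes. RefSeq windows (GRCm38.p6) of 300 bases, 250 before to 50 after a start, were found for 28 of the 45 members, 40 windows in all. The motif was searched as the word CTTTGAA, the word CTTTGAT, the word CTTTGTA or the word CTTTGTT on both strands, and no other motif was searched. It was present in 5 of the 40 windows (12.5%) and in 16.9% of all 32851 windows. The genes were Fzd7, Gsk3a, Apc2, Lef1 at 1 of its 4 starts and Tcf7l2 at 1 of its starts, with log2 fold changes of 0.05, -0.09, -0.07, 0.001 and -0.02. Shown are the window of Axin2, in which the words were not found, and the windows of the 2 TCF/LEF genes with a match, read along the gene's strand with the match in capitals. They lie on the plus strand at chr11:108920099-108920398, chr3:131156044-131156343 and chr19:55895071-55895370. The Lef1 and Tcf7l2 windows stand at starts inside these genes, which begin at chr3:131110471 and chr19:55741820. The match is on the opposite strand 147 bases before the start in Lef1 and on the gene's strand 14 bases before it in Tcf7l2.
Axin2: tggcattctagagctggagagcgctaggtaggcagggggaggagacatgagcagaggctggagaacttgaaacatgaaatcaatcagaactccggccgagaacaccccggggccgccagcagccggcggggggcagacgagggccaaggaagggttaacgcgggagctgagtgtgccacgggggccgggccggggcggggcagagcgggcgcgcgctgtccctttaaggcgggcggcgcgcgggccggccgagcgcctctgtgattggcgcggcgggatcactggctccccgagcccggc
Lef1: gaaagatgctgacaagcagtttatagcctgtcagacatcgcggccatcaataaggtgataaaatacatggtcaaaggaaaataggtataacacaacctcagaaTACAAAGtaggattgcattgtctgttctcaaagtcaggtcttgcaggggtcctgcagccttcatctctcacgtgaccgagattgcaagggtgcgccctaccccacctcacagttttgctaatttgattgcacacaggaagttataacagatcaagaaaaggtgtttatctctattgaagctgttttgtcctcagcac
Tcf7l2: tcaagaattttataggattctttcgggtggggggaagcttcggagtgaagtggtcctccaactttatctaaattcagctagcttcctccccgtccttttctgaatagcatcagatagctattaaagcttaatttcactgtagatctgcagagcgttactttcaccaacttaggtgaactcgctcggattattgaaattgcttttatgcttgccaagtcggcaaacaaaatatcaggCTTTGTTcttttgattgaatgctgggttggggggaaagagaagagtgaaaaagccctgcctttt

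Other genes of the pathway gave a like picture. Of 108 further genes listed for secretion, receptors, inhibitors, degradation, nuclear factors, planar polarity and targets, 94 were tested, 0 passed adjustment with limma, and 8 (8.51%) had an unadjusted p under 0.05, against 0.0179% and 9.23% of all genes. The share was thus no larger than over all genes, and the 8 are named to account for the count. Higher in HT were Ccdc88c, for the Dishevelled-binding protein Daple (log2 fold change 0.21, adjusted p = 0.414), the co-activator gene Ep300 (0.16), the Dishevelled-associated formin gene Daam2 (0.27) and the Wnt co-receptor genes Ptk7 (0.17) and Ryk (0.14). Lower were Wls, for the carrier that brings Wnt ligands to the cell surface (-0.15), the secreted inhibitor gene Frzb (-0.25) and the phosphatase subunit gene Ppp2r5e (-0.11). Of 15 textbook beta-catenin targets, Axin2, Lef1, Tcf7, Nkd1, Rnf43, Znrf3 and Lgr5 among them, 12 were tested. By limma 0 of the 12 had an unadjusted p under 0.05, and their log2 fold changes ranged from -0.14 to 0.21 with a median of 0.04.

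The highest and lowest values of the members fell unevenly over the mice. HT2 was the highest of the 10 mice for 14 of 45 members (31.1%, against 17.1% over all genes) and the lowest for 8 (17.8%, against 21.8%). WT3 was the lowest for 10 (22.2%, against 11.7%). HT2 was highest among others for Wnt5a, Wnt7a, Fzd2, Fzd6, Lgr4, Lrp5, Ctnnb1, Axin2 and Tcf7, and lowest for Wnt2, Wnt4, Fzd3, Gsk3a, Gsk3b and Csnk1a1. The highest value was less than 1.5 times the lowest for 27 of 45 members, and at least 2 times the lowest for 6, which were Lgr5, Fzd5, Wnt2, Tcf7l2, Nkd2 and Wnt5a.

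**Figure D5:**
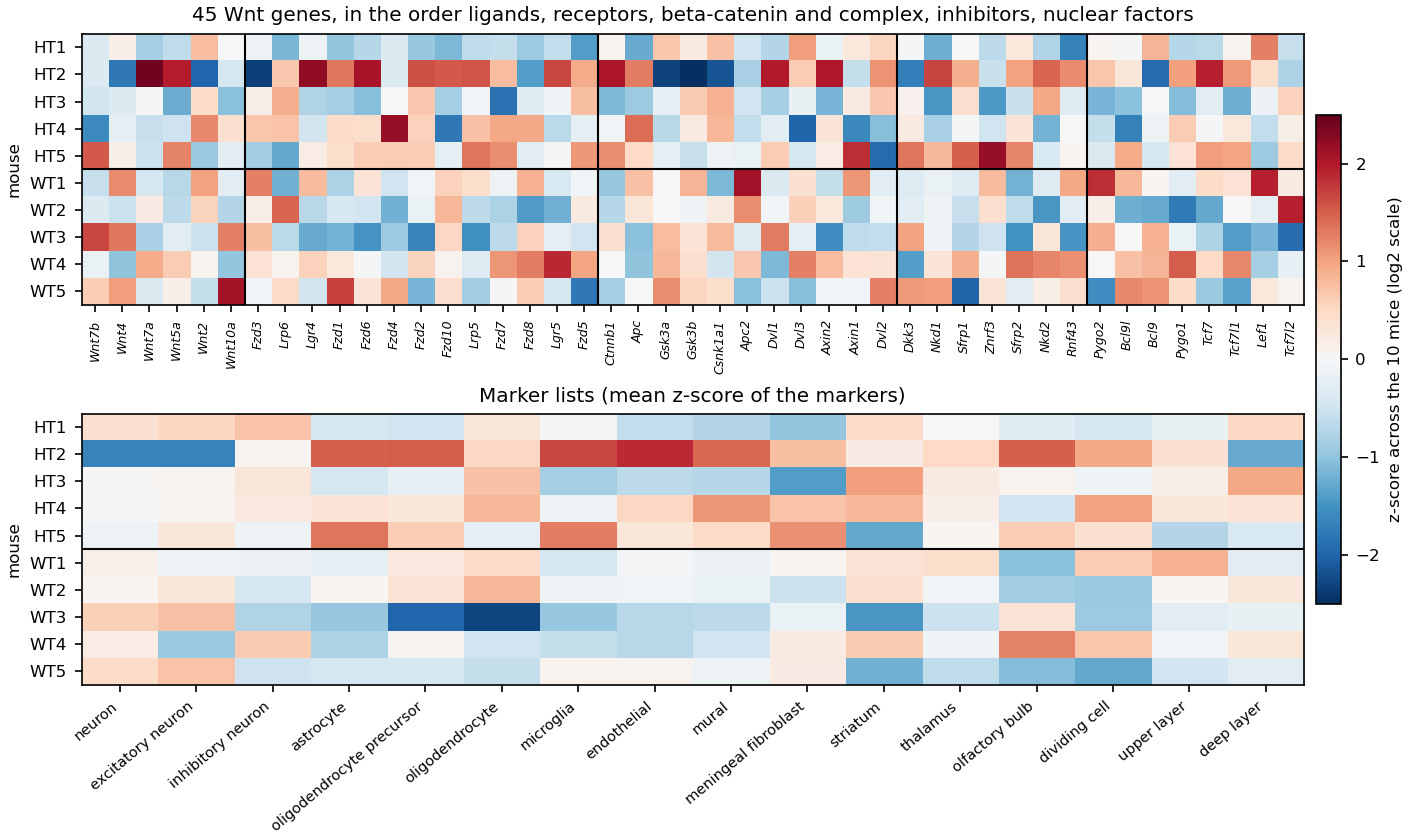
Z-scores across the 10 mice (colour, log2 scale) of the 45 Wnt genes (upper map, x axis) and of 16 marker lists (lower map, x axis) in each mouse (y axis), with a black line between HT and WT. HT2 has the most extreme colours in both maps, with 14 members at their highest value, and WT3 has 10 members at their lowest.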

How the data were processed

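Prefrontal cortex RNA of 10 mice was sequenced as stranded poly-A libraries, 1 per mouse. The authors estimated transcript abundance with Salmon 1.1.0 against GRCm38 with GC bias correction, summed it to genes with tximport and divided it by DESeq2 1.30.1 size factors. What was deposited is thus a signal scaled by size factors, 1 value per gene and mouse, named the normalised count in the text. It is not a whole count (14.3% to 49.9% of low values in a library fell within 0.05 of whole steps), so depth is unknown, precision rests on the spread between mice, and the planned test for normalised values was used. The lowest row total was 41.7, so low genes had been filtered in a way not given in the sources used here. Salmon shares reads between similar transcripts by a model.

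Groups and replicate numbers came from sample titles, and symbols and exon lengths from GENCODE M21, where 18205 of 18216 identifiers matched. Genes with a mean of 10 or more (16781) were compared as log2(value + 1) by limma 3.58.1 under R 4.3.3 (lmFit, eBayes with a mean-variance trend), genotype as the only factor, two-sided, with Benjamini-Hochberg adjustment over all genes tested and 0.05 as threshold. Log2 fold changes are on this scale, which understates those of low genes. Marker scores were the mean z-score of 16 marker lists (a 17th, choroid plexus, had values for 42.9% of its markers and entered no relation), related to the 45 members by 100000 permutations, two-sided, over 720 relations. The marker lists and the lists of other pathway genes were written by hand. The members and lists were chosen with earlier results of these data known. Full values are given for members with an unadjusted p under 0.05 or without overlap, and for Ctnnb1 and Axin2. Further members given in full (Wnt4, Fzd10, Fzd2, Lgr5 and others) were chosen after their values were seen. Other pathway genes are named where the unadjusted p was under 0.05.

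Alternatives were a pseudocount of 0.5 or 10, the filter set to 50 or dropped, upper-quartile and quantile scaling, no trend, quality weights, a replicate block, marker scores as covariates, and mice left out. Those without HT2 and WT4, without HT2, HT5 and WT4, and with an olfactory bulb score were added after seeing the data. The fit was also run on simulated data, and the outcome is not reported here. Scores, relations and figures were made in Python 3.11.15 (scipy 1.17.1, numpy 2.4.6, matplotlib 3.10.9, pandas 2.3.3).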

Additional observations from a re-analysis of the deposited data

Results flagged for a closer look

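Of the 90 sets of 5 mice (45 members in HT and in WT), 6 held a mouse whose gap to its nearest neighbour exceeded 0.71 of the range of the set, where chance gives about 4.5. Wnt4 was 676 in HT2 against 816 to 871 in the other HT mice, and Wnt7a was 563 in HT2 against 363 to 404. Lgr5 was 351 in HT2 against 102 to 148, and 393 in WT4 against 77.6 to 130. Fzd8 was 127 in WT2 against 157 to 169 in the other WT mice. Znrf3 was 781 in HT5 against 631 to 667 in the other HT mice. Of the 6 values, 3 belong to HT2, the mouse with the lowest neuron marker sum.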

How the results depend on the processing

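Under all 26 alternatives 0 of the 45 members passed adjustment (smallest adjusted p 0.364), and Arid1b stayed between -0.61 and -0.55. The number of members with an unadjusted p under 0.05, 2 as reported, was 1 with no mean-variance trend (8.53% of all genes). It was 1 with endothelial or striatum scores as covariates (6.83% and 9.62% of all genes) and 0 with the olfactory bulb score (7.37%). With 1 mouse left out it was 0 to 5 (0 without HT5, WT2 or WT3, 1 without HT2, 4 without HT1 and 5 without WT4, where 6.45% to 8.36%, 7.19%, 10.6% and 10.9% of all genes were under 0.05). The median log2 fold change of the members moved to -0.049 with the astrocyte score as a covariate, and was -0.02 to 0.02 with 1 mouse left out. Axin2 turned to -0.067 with the astrocyte score, -0.013 with the endothelial score and -0.016 without HT2 and HT5. The cause was not tested. Lrp5 and Sfrp1 kept their direction in all 26, each with an unadjusted p under 0.05 in 13 (Fzd10 in 7, Nkd1 in 3), and 19 of 45 members kept theirs. The replicate numbers 1 to 5 belong to different mice. Correlations of same-numbered mice were -0.04 to 0.10 (mean 0.04, against -0.009 for other pairs), and 3 of 5 HT and 2 of 5 WT mice correlated best with their own number. With the replicate block 1 member had an unadjusted p under 0.05, where 8.99% of all genes did. Depth is unknown, so low members such as Wnt10a and Fzd5 are limited by the spread between mice alone.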

Other observations

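Several members followed marker scores across the 10 mice. They were chosen after their values were seen, from 720 relations of which 14 passed adjustment by Pearson's r and 0 by Spearman's rho, while 145 had an unadjusted p under 0.05. Gsk3a rose with the neuron score (r = 0.94, permutation p = 0.00021, adjusted p = 0.0319, and rho = 0.92, permutation p = 0.0005, adjusted p = 0.0972), with r = 0.90 without HT2 and WT3. The co-activator gene Bcl9 followed the same score (r = 0.84, permutation p = 0.00068, adjusted p = 0.0445, and rho = 0.90, permutation p = 0.00081, adjusted p = 0.0972), with r = 0.77 without those mice. Apc followed the score of mural cells, the pericytes and smooth muscle of vessels (r = 0.90, permutation p = 0.00015, adjusted p = 0.0319, and rho = 0.89, permutation p = 0.00099, adjusted p = 0.102), with r = 0.85 without HT2 and HT4. Fzd6 followed the endothelial score (r = 0.91, permutation p = 0.00087, adjusted p = 0.0487, and rho = 0.85, permutation p = 0.00286, adjusted p = 0.187), with r = 0.92 without HT2 and WT4. Fzd7 followed the meningeal fibroblast score (r = 0.92, permutation p = 0.00014, adjusted p = 0.0319, and rho = 0.92, permutation p = 0.00058, adjusted p = 0.0972), with r = 0.87 without HT1 and HT3. Nkd1 moved against the deep layer score (r = -0.89, permutation p = 0.00054, adjusted p = 0.0445, and rho = -0.82, permutation p = 0.0059, adjusted p = 0.212), with r = -0.74 without HT2 and HT3. With each genotype's mean subtracted, r was 0.92 for Gsk3a, 0.82 for Bcl9, 0.92 for Apc, 0.90 for Fzd6, 0.92 for Fzd7 and -0.90 for Nkd1.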
